A study of Danio rerio with 12 samples.

Results

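The genes described here belong to the stress axis and to steroid synthesis of the zebrafish: nr3c1, pomca, mc2r, star, cyp11a1, nr5a1b, nr5a1a and hsd11b2. They were taken as the probes whose accession on the array maps to one of these symbols or to an older synonym (ff1d for nr5a1b, ff1b for nr5a1a), which gave 11 probes for 8 of the 10917 named genes on the array. nr3c1, star and cyp11a1 had 2 probes each, and the probe with the highest mean intensity over the arrays was used for each gene. Wild-type zebrafish embryos were injected at the one-cell stage with 4.4 ng of oligonucleotide in 1 nl. The oligonucleotide was either a morpholino (MO) that covers the start codon of the message for the glucocorticoid receptor (GR), or a mispair control (MP) that differs from it at several bases. Whole embryos were frozen at 24 or 36 hours post fertilization (hpf) in pools of 25 embryos, and RNA from each pool was hybridised to 1 one-colour Agilent array. The 12 arrays formed 4 groups of 3: MO at 24 hpf, MP at 24 hpf, MO at 36 hpf and MP at 36 hpf. All groups were injected, so the controls also carry an oligonucleotide. The replicates came from separate breeding events.

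In fish, the hypothalamus releases corticotropin releasing hormone onto the corticotrope cells of the pituitary. These cells make proopiomelanocortin (pomca), the precursor of the hormone ACTH. ACTH acts through the melanocortin 2 receptor (mc2r) on the interrenal tissue, the counterpart of the mammalian adrenal cortex, which lies in the head kidney. There the steroidogenic acute regulatory protein (star) brings cholesterol into the mitochondrion and the side chain cleavage enzyme (cyp11a1) makes pregnenolone from it, the first steps towards cortisol. nr5a1a and nr5a1b are the zebrafish copies of steroidogenic factor 1, a transcription factor of steroid-making tissues. hsd11b2 encodes the enzyme that inactivates cortisol, and nr3c1 encodes GR, the receptor through which cortisol acts and through which it restrains its own axis.

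The oligonucleotide is shown because it defines the comparison. The labels print 1 sequence for both oligonucleotides, so it is given for the morpholino only, and the sequence of the mispair control is not shown. The capitals on the target strand mark the start codon of the nr3c1 message, which begins at base 5 of the 25 bases covered.
Morpholino: ctccagtcctccttgatccattttg
Target strand: caaaATGgatcaaggaggactggag
A morpholino of this kind blocks translation and need not lower the message, so the nr3c1 values do not check the labels. For pomca, star, nr5a1b, cyp11a1 and mc1r, the study words the direction between MO and MP opposite to what the labelled arrays show. Its PCR measurements left out cyp11a1 and were made at the later age only, on pools of embryos separate from those on the arrays. For pomca, star, nr5a1b and mc1r they are worded in the study's direction too. The same reversal holds at both ages for the muscle gene tnnt3b and the lens gene cryba4, and at 24 hpf for the germ cell gene piwil1. The study also words vasopressin (avpl) as increased at both ages, whereas avp was lower in MO here. These genes are examples and not a full list. The files do not show whether labels or ratios were exchanged. MO and MP stand here for the labels of the arrays, and each difference is MO minus MP.

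Levels are given as log2 normalized intensity, where 0 is the median over 19114 probes that read above 50 on every array. Levels of different genes cannot be compared, since each probe binds with its own strength. Between 65.9% and 82.5% of probes were well above background on an array. At 36 hpf the share was 70.5%, 65.9% and 67.2% in MO replicates 1, 2 and 3, and 80.4%, 72.8% and 78.2% in MP. Every MO array of that age thus had a lower share than every MP array. This bears on genes given below as not well above background in MO at 36 hpf. MO replicate 2 at 36 hpf stood apart: its median probe intensity was 35.4, against 79.8 to 170.5 on the other 5 arrays at 36 hpf. Its profile correlated at 0.94 to 0.95 with the other MO arrays at 36 hpf and at 0.95 to 0.96 with the MO arrays at 24 hpf, over 9135 genes. The values of the genes at 36 hpf are therefore also given without it, and so are the calls of the gene lists that change. Each slide held 1 MO and 1 MP array of the same age, and the ages were on different slides and in different scan sessions. Replicates differed by more than the replicate spots of an array did. The closest pair, MP replicates 1 and 3 at 24 hpf, had an SD of log2 differences of 0.146, against 0.0731 from replicate spots.

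At 24 hpf, 6 of the 7 genes that could be tested differed between MO and MP, 5 of them lower and 1 higher in MO. Of the 10355 genes tested, 48.3% differed, 24.0% lower and 24.3% higher, so a change in itself was common. The median log2 change was -1.06 over the 7 genes and 0.01 over all genes tested. The values of the groups did not overlap for 6 of the 7 genes, against 59.7% of all genes. Tests were made with limma and are given with p-values adjusted by Benjamini-Hochberg over all genes tested. nr5a1b entered the test through its MP arrays only, where it was high, and was well above background on no MO array, so its call follows in part from the filter. Among the other 6 genes, 5 differed, 4 lower and 1 higher, with a median of -0.77. mc2r did not enter the test.

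At 36 hpf, 3 of the 7 genes differed, all lower in MO: star, nr5a1b and hsd11b2. The background was smaller here, with 6.37% of 9886 genes called, 4.45% lower and 1.92% higher. The groups did not overlap for 5 of the 7 genes, against 29.3% of all genes. The median log2 change was -1.82 over the 7 genes and 0.03 over all genes tested. nr5a1b again entered the test through its MP arrays only and its MO arrays were not well above background, and the median is its own value. Among the other 6 genes, 2 differed, both lower, the groups of 4 did not overlap, and the median was -1.0. pomca and star also met the filter through MP, with 2 of 3 MO arrays well above background. All 3 calls were lost when MO replicate 3 or any 1 of the MP arrays was left out, with adjusted p-values from 0.060 to 0.132. Over all genes these settings called 19 to 94 genes instead of 630. Without MO replicate 2, 4 of the 7 genes and 1121 of all genes (11.4%) were called. The methods' t-test called 0 of the 7 and 2 of all genes.

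**Figure D1:**
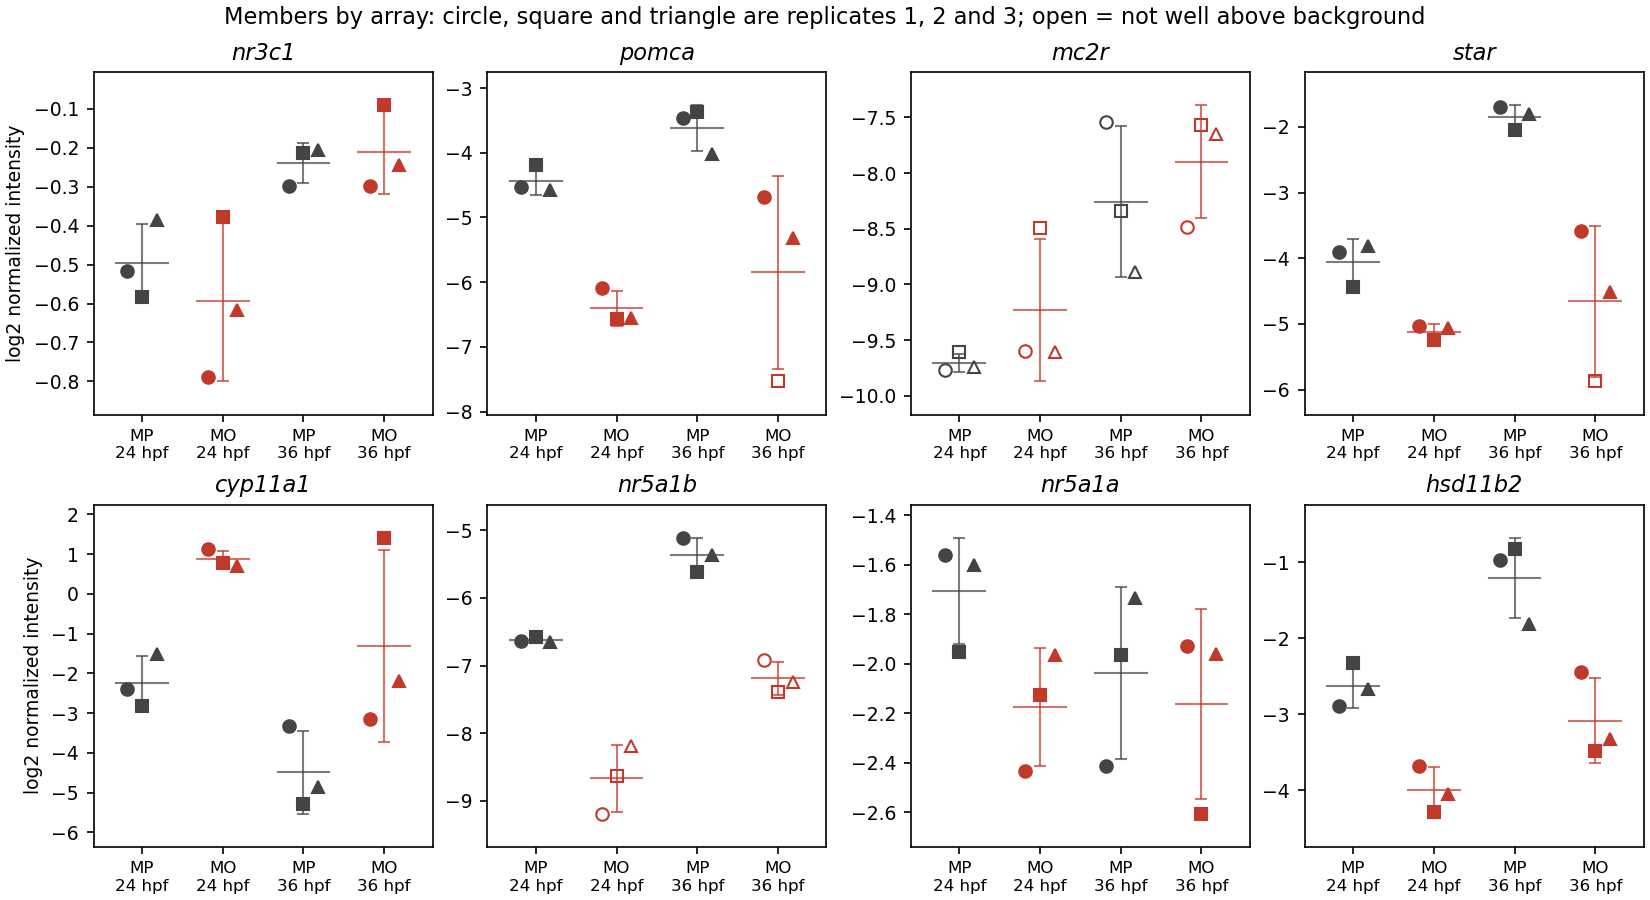
Log2 normalized intensity of the 8 genes on each array, by group, with a line at the mean and bars of 1 SD (n = 3 arrays); circles, squares and triangles are replicates 1, 2 and 3, and open symbols are not well above background. pomca, star, nr5a1b and hsd11b2 lie lower in MO than in MP at both ages, cyp11a1 lies higher, and all mc2r symbols are open.

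For the receptor gene nr3c1 no difference between MO and MP passed the test, and the intervals bound its size. At 24 hpf its levels were -0.79, -0.38 and -0.62 in MO replicates 1, 2 and 3, and -0.52, -0.58 and -0.39 in MP. At 36 hpf they were -0.30, -0.09 and -0.24 in MO, and -0.30, -0.21 and -0.20 in MP. The groups overlapped at both ages on this probe. The log2 change was -0.10 at 24 hpf (SE 0.13, adjusted p = 0.547), with a 95% interval from -0.39 to 0.19. At 36 hpf it was 0.03 (SE 0.19, adjusted p = 0.950), with an interval from -0.41 to 0.46, and its sign turned under other scalings and without MO replicate 2 (-0.03). On the other nr3c1 probe the groups did not overlap at 24 hpf, where MO read -1.01 to -0.92 and MP -0.76 to -0.54. That probe gave -0.28 at 24 hpf (adjusted p = 0.0699 over 35338 probes) and -0.12 at 36 hpf (adjusted p = 0.806).

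pomca, which encodes the precursor of ACTH, was lower in MO at 24 hpf. Its levels were -6.09, -6.57 and -6.56 in MO and -4.54, -4.19 and -4.58 in MP. All MO arrays lay below all MP arrays, giving a log2 change of -1.97 (SE 0.22, adjusted p = 0.00015), a 3.92-fold difference. On the 3 slides the difference was -1.90, -2.04 and -1.98. With a floor set after scaling, the change was -0.04 and the call was lost (adjusted p = 0.447). That floor, at log2 -4.32, lies above all MO levels and above MP replicates 1 and 3, so it cannot show the difference. With normexp background correction the change was smaller, at -0.64 (adjusted p = 0.0018). Normexp here adds an offset of 50, and this probe read 12.4 to 77.8 at 24 hpf, so it compresses log2 changes at this signal. At 36 hpf the levels were -4.69, -7.53 and -5.32 in MO, and -3.46, -3.37 and -4.02 in MP. The groups again did not overlap, but MO replicate 2 was far below the other arrays and not well above background there. The log2 change of -2.23 (SE 0.68) did not pass the test (adjusted p = 0.104). Without MO replicate 2 it was -1.39 and passed (adjusted p = 0.0385), and with normexp it was -0.23 (adjusted p = 0.730). In whole embryos, fewer cells of a type and less RNA per cell cannot be told apart, for this and every gene below.

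Of 5 marker genes of the other pituitary cells on the array, 4 were tested at 24 hpf. Prolactin (prl) was lower in MO (log2 change -1.97, adjusted p = 0.00035), with 2 of 3 MO and 3 of 3 MP arrays well above background. The thyrotropin beta chain (tshba) met the filter through MO only, where it was high, with 1 of 3 MP arrays well above background, and measured 1.26 (adjusted p = 0.019). The other 2 did not pass. These calls stand beside 48.3% of all genes that differed at 24 hpf. The summed level of the 5 markers ranged from 0.0373 to 0.050 in MO and from 0.0586 to 0.0663 in MP. At 36 hpf only prl could be tested, with a log2 change of -1.61 that did not pass (adjusted p = 0.142), and the summed level was 0.0430 to 0.0647 in MO and 0.0729 to 0.138 in MP. cga was well above background on 0 arrays. The part of pituitary cell number in the pomca result was not tested.

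mc2r, the receptor for ACTH, did not rise well above background on a single one of the 12 arrays. Its intensities ran from 1.47 to 9.43, and no fold was computed. At this signal a difference in mc2r was not detectable.

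star, which delivers cholesterol for steroid synthesis, was lower in MO at both ages. At 24 hpf the levels were -5.04, -5.24 and -5.07 in MO, and -3.91, -4.44 and -3.81 in MP. The groups did not overlap, and MO differed on the log2 scale by -1.06 (SE 0.21, adjusted p = 0.0029), or 2.09-fold. The call was lost with a floor set after scaling (-0.31, adjusted p = 0.154) and in a single fit of all 12 arrays (adjusted p = 0.105). The floor, at log2 -4.32, lies above all MO levels and MP replicate 2 here, so it cuts the difference. At 36 hpf the levels were -3.59, -5.87 and -4.51 in MO, and -1.70, -2.05 and -1.80 in MP. Every MO array lay below every MP array, with MO replicate 2 lowest and not well above background. The log2 change was -2.81 (SE 0.53, adjusted p = 0.029), or 6.99-fold, and was -2.20 without MO replicate 2 (adjusted p = 0.0070) and -1.24 with normexp (adjusted p = 0.021). The 6.99-fold includes the array that was not well above background. At 24 hpf normexp gave -0.47 (adjusted p = 0.010), where its offset of 50 stands beside intensities of 31.2 to 107.8 and compresses the change. The differences on the 3 slides at 36 hpf were -1.54, -4.17 and -2.70, and with slide as a block the call was lost (adjusted p = 0.057). The other star probe gave log2 changes of -0.96 at 24 hpf (adjusted p = 0.0076) and -2.0 at 36 hpf (adjusted p = 0.043), over all probes.

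cyp11a1 was the one gene of the set that was higher in MO at 24 hpf. At 24 hpf its levels were 1.12, 0.77 and 0.71 in MO, and -2.38, -2.83 and -1.50 in MP. The groups stood far apart, with a log2 change of 3.10 (SE 0.29, adjusted p = 6.4e-05), or 8.59-fold. In intensity, MO arrays read 2017 to 2905 and MP arrays 200.2 to 444.3. At 36 hpf the levels were -3.16, 1.41 and -2.20 in MO, and -3.32, -5.29 and -4.85 in MP. The groups did not overlap, but MO replicate 1 and MP replicate 1 lay close together and MO replicate 2 was as high as the MO arrays at 24 hpf. The log2 change of 3.17 (SE 1.1) did not pass the test (adjusted p = 0.145), and was 1.81 without MO replicate 2 (adjusted p = 0.092). The 3 slides gave 2.14, 4.73 and 2.65, and with slide as a block the difference passed (adjusted p = 0.048). Its other probe moved the same way, by 3.86 at 24 hpf (adjusted p = 5.0e-06) and 3.43 at 36 hpf (adjusted p = 0.046), over all probes. The reference names the gene of both probes cyp11a1.1 and lists a close copy, cyp11a1.2. Whether the probes also bind that copy was not tested, so the values are uncertain between the copies.

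In zebrafish, cyp11a1 message is also known from the egg and from the yolk syncytial layer, the layer of nuclei beneath the embryo that processes the yolk. Markers of that layer and of germ cells were therefore set beside it. All 3 yolk layer markers that could be tested at 24 hpf were higher in MO, beside 24.3% of all genes. The lipoprotein gene apoa1a was higher by 1.61 on the log2 scale (adjusted p = 0.00037), afp4 by 0.97 (adjusted p = 0.00030) and the lipoprotein gene apobb.1 by 0.76 (adjusted p = 0.0014). The summed level of the list was 215.8 to 233 in MO and 105.3 to 143.4 in MP. At 36 hpf none of 4 passed with limma or with the methods' t-test, 2 of them having an unadjusted p under 0.05, and the summed level was 67.8 to 319.7 in MO and 21.1 to 34.4 in MP. Without MO replicate 2, apobb.1 and afp4 passed there and were higher, beside 11.4% of all genes called in that setting. Of the 4 germ cell markers, ddx4, dnd1 and piwil1 were higher in MO at 24 hpf, beside the same 24.3% of all genes. The summed level of the 4 was 1.44 to 1.88 in MO and 0.851 to 1.16 in MP. At 36 hpf none of the 4 passed with limma or with the methods' t-test, and 0 had an unadjusted p under 0.05. The part of these cells in the cyp11a1 result was not tested.

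Of the copies of steroidogenic factor 1, nr5a1b was well above background on all 6 MP arrays and on none of the 6 MO arrays. At 24 hpf its levels were -9.19, -8.63 and -8.19 in MO, and -6.63, -6.58 and -6.65 in MP. At 36 hpf they were -6.92, -7.40 and -7.25 in MO, and -5.11, -5.62 and -5.37 in MP. MO lay below MP without overlap at both ages, but the MO values are only bounds. Each MO value was set to the lowest level of any probe well above background on its array, or the measured level where higher. MP was then at least 1.63-fold higher at 24 hpf and at least 1.20-fold higher at 36 hpf. That lowest level is not the detection limit of this probe, so the folds hold only under this rule. The fit on the measured values, whose MO side was not well above background, gave -2.05 at 24 hpf (SE 0.32, adjusted p = 0.0010) and -1.82 at 36 hpf (SE 0.33, adjusted p = 0.026), and -1.72 there without MO replicate 2. The gene was in that fit only because MP was high, so these values carry no support beyond the bounds. The call at 36 hpf was lost with slide as a block (adjusted p = 0.088), with quantile normalization (0.060) and with spike-in scaling (0.082), among others. In all it was lost in 10 alternatives, kept in 11 and reversed in sign in 1. With normexp background correction, the change was -0.09 at 24 hpf (adjusted p = 0.505) and turned to 0.39 at 36 hpf (adjusted p = 0.638). Normexp here adds an offset of 50, while this probe read 2.03 to 50.9, so that setting cannot show the direction of its change.

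nr5a1a, the other copy, was well above background on all arrays. At 24 hpf its levels were -2.43, -2.13 and -1.96 in MO, and -1.56, -1.95 and -1.60 in MP. MO replicate 3 and MP replicate 2 nearly touched. The log2 change was -0.47 (SE 0.16, adjusted p = 0.041), with a 95% interval from -0.84 to -0.10. This call was lost without MO replicate 1, MO replicate 2, MP replicate 1 or MP replicate 3, where the adjusted p was 0.131, 0.081, 0.131 and 0.125. It was also lost with the methods' t-test (0.121), the single fit of all 12 arrays (0.192), a floor set after scaling (0.091), normexp (0.057) and a replicate block (0.056, and 0.081 with MP replicates 2 and 3 exchanged), and so in 10 of 24 alternatives. At 36 hpf the levels were -1.93, -2.61 and -1.96 in MO, and -2.41, -1.97 and -1.73 in MP, and the groups overlapped. The log2 change of -0.13 did not pass (SE 0.30, adjusted p = 0.856), with an interval from -0.83 to 0.57, and turned to 0.09 without MO replicate 2.

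hsd11b2, which encodes the enzyme that inactivates cortisol, was lower in MO at both ages. At 24 hpf its levels were -3.68, -4.29 and -4.04 in MO, and -2.90, -2.32 and -2.66 in MP. The groups did not overlap, the 3 slides gave -1.36, -1.39 and -1.38, and the overall log2 change stood at -1.37 (SE 0.21, adjusted p = 0.00076), or 2.59-fold. At 36 hpf the levels were -2.44, -3.48 and -3.33 in MO, and -0.97, -0.83 and -1.81 in MP. Again every MO array lay below every MP array, with a log2 change of -1.88 (SE 0.38, adjusted p = 0.033), or 3.68-fold. Without MO replicate 2 the change was -1.68 (adjusted p = 0.028). The call was lost with slide as a block (adjusted p = 0.056), a floor set after scaling (0.087) or spike-in scaling (0.072), among others. In all it was lost in 10 alternatives and kept in 14. The pronephros, the early kidney, is known to lie beside the interrenal cells. Of 5 pronephros and glomerulus markers at 24 hpf, podxl was lower (-0.64, adjusted p = 0.0020), pax2a was higher (0.68, adjusted p = 0.00032) and 3 did not pass. These calls stand beside 48.3% of all genes that differed at that age. At 36 hpf none of the 5 passed with limma or the methods' t-test, and 2 had an unadjusted p under 0.05. Of the catecholamine markers, cells of which mingle with interrenal tissue, th was lower (-1.05, adjusted p = 0.0057) and dbh higher (0.72, adjusted p = 0.029) at 24 hpf. The same 48.3% of all genes stands beside them. At 36 hpf 1 was tested and it did not pass with either test, with an unadjusted p under 0.05.

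**Figure D2:**
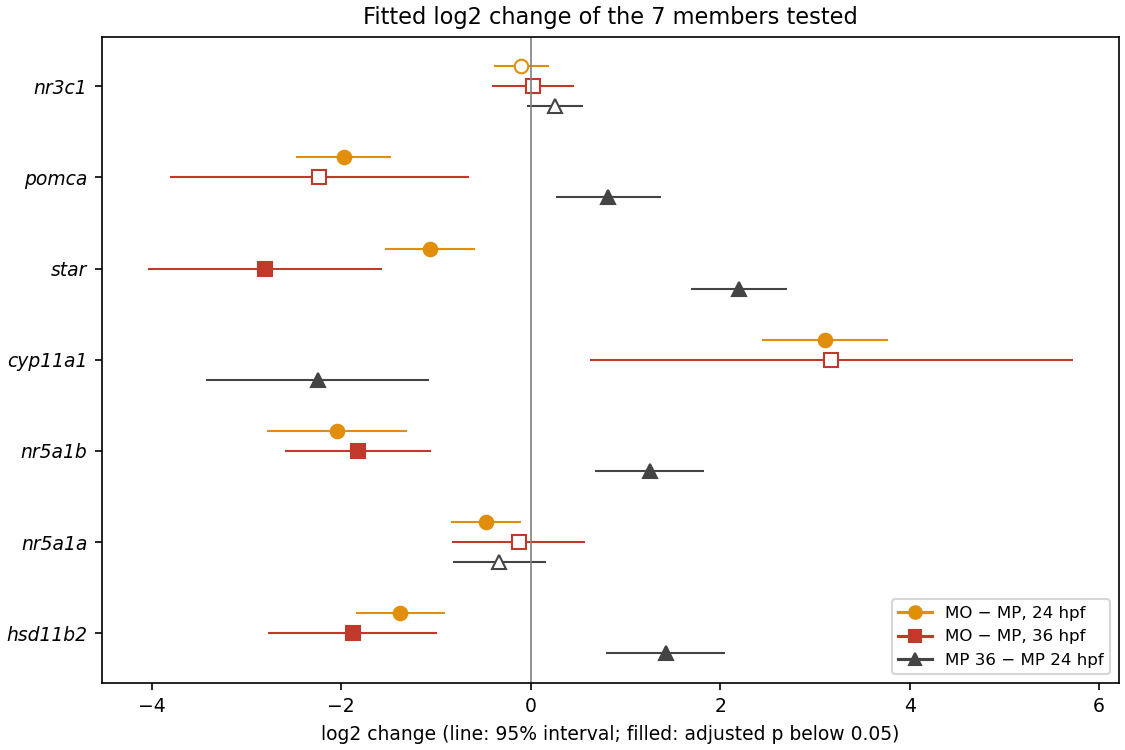
Log2 change of each tested gene in the comparisons of MO with MP at 24 and 36 hpf and of MP between the ages, with 95% intervals (n = 3 arrays per group). Intervals at 36 hpf are wide for pomca, star and cyp11a1, whose MO arrays spread most, and those of nr3c1 include 0 in all comparisons.

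In the control embryos several of these genes changed with age. From 24 to 36 hpf in MP, 5 of 7 genes differed: star, hsd11b2, nr5a1b and pomca rose and cyp11a1 fell. Of the 10304 genes tested 30.5% differed, 16.1% lower and 14.3% higher. The groups did not overlap for 6 of the 7 genes, against 48.4% of all genes, and the median log2 change was 0.82 over the 7 genes and -0.06 over all. star rose most among the risers, by 2.20 (SE 0.22, adjusted p = 0.00031), a 4.60-fold difference. hsd11b2 rose by 1.43 (SE 0.28, adjusted p = 0.0063) and nr5a1b by 1.26 (SE 0.25, adjusted p = 0.0072). pomca rose by 0.82 (SE 0.24, adjusted p = 0.035), a call that was lost without MP replicate 1 or 3 at 24 hpf or MP replicate 1 or 2 at 36 hpf (adjusted p = 0.125, 0.128, 0.067 and 0.075). cyp11a1 fell by 2.25 (SE 0.52, adjusted p = 0.012), or 4.76-fold, and its other probe fell by 2.88 (adjusted p = 0.0014 over all probes). nr3c1 changed by 0.26 (SE 0.13, adjusted p = 0.162) and nr5a1a by -0.33 (SE 0.21, adjusted p = 0.272). Spike-in or positive control scaling left 2 of the 5 calls, those of star and cyp11a1. Age cannot be told apart from slide and scan session in this comparison. It shares its MP arrays with both comparisons of MO with MP. For star the changes were -1.06 for MO against MP at 24 hpf, -2.81 at 36 hpf and 2.20 for MP with age, and for cyp11a1 they were 3.10, 3.17 and -2.25.

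Whether the difference between MO and MP changed with age was tested over all 12 arrays. None of the 7 genes passed with limma, against 1.56% of the 10393 genes tested, and 1 of the 7 had an unadjusted p under 0.05. That gene was star, with a log2 difference of -1.74 between the ages (SE 0.62, unadjusted p = 0.016, adjusted p = 0.200). Its adjusted p was 0.047 without MO replicate 1 at 36 hpf, 0.028 with positive control scaling and 0.012 with a floor set after scaling. In the other 24 alternatives star did not pass, with adjusted p up to 0.426. Positive control scaling moved the median of all genes to -1.085 in this test. The floor, at log2 -4.32, lies above all MO levels of star at 24 hpf and so cuts its difference there. For the other 6 genes the difference ran from -0.51 for hsd11b2 to 0.34 for nr5a1a, and that of cyp11a1 was 0.07 with an interval from -2.76 to 2.90.

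Of 57 other genes listed for the axis, 38 were on the array. At 24 hpf 34 of them were tested, 7 were higher and 9 lower in MO and 18 did not pass, with a median log2 change of -0.03. The 16 of 34 that passed stand beside 48.3% of all genes. At 36 hpf 28 were tested, 1 was higher, 3 were lower and 24 did not pass, with a median of -0.15, and the methods' t-test called 0. The 4 of 28 stand beside 6.37% of all genes. Without MO replicate 2, ptges3b (higher) and crhb (lower) passed in addition, and the share of all genes called rose to 11.4%. In MP with age 34 were tested, 7 rose, 6 fell and 21 did not pass, beside 30.5% of all genes. In the test of the difference between ages none of 35 passed with limma, beside 1.56% of all genes, and 4 had an unadjusted p under 0.05.

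Upstream of pomca, among 5 hypothalamic genes tested at 24 hpf, 2 were lower in MO and none higher, beside 48.3% of all genes changed and 24.0% lower. crhbp, which binds corticotropin releasing hormone, changed by -0.70 (adjusted p = 0.0021), and avp, the vasotocin gene, by -0.94 (adjusted p = 0.0022). At 36 hpf avp was lower again (-1.43, adjusted p = 0.034). crhb, the hormone gene itself, was well above background on 0 MO arrays at 36 hpf. Under the rule given for nr5a1b, which is not a strict limit, MP was at least 2.96-fold higher. The adjusted p of 0.070 belongs to the measured values, and the gene met the filter there through MP only. It passed when MO replicate 2 was left out, as did 11.4% of all genes. In MP, crhb, crhbp and avp rose with age by 2.04, 0.75 and 1.58 (adjusted p = 0.0021, 0.0094 and 0.0012). Of 3 other corticotrope genes tested at 24 hpf, pcsk1, a prohormone convertase, measured -0.12 (adjusted p = 0.630) and pomcb, the other proopiomelanocortin gene, 0.19 (adjusted p = 0.546), and neither passed. cpe, a peptide-processing enzyme used widely in neuroendocrine cells, was lower in MO by 1.09 at 24 hpf and 1.60 at 36 hpf on the log2 scale (adjusted p = 9.0e-05 and 0.016).

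mc2r could not be measured. Of its relatives, mc1r, mc4r and mc5ra were tested at 24 hpf, and mc1r and mc5rb at 36 hpf. Their calls stand beside 48.3% of all genes that differed at 24 hpf and 6.37% at 36 hpf. mc1r, known as the receptor that acts in pigment cells, was well above background on all 6 MP arrays and on no MO array, and so was tested only because MP was high. Under the rule given for nr5a1b, MP was at least 1.87-fold higher at 24 hpf and at least 1.44-fold higher at 36 hpf. The fit on the measured values gave adjusted p = 0.0010 and 0.042, which do not test these bounds. mc5ra was lower in MO at 24 hpf (-2.12, adjusted p = 0.00010), with 2 of 3 MO arrays well above background. mc4r, measured on all 6 arrays at 24 hpf, changed by -0.17 and did not pass (adjusted p = 0.555). mc5rb at 36 hpf did not pass (-0.95, adjusted p = 0.316), with no MO array well above background.

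Steroid synthesis genes other than star and cyp11a1 went both ways at 24 hpf, with 4 of 7 higher and 1 lower in MO. Of all genes, 24.3% were higher and 24.0% lower. The largest differences were in hsd3b2, an enzyme of the step after cyp11a1 (2.72, adjusted p = 1.4e-05), and in scarb1, a receptor that takes up cholesterol from lipoproteins (2.0, adjusted p = 0.00013). pora, which passes electrons to microsomal enzymes, was higher by 0.65 (adjusted p = 0.010), and stard3, a cholesterol transporter related to star, by 0.63 (adjusted p = 0.0019). cyp17a1, the 17-hydroxylase on the way to cortisol, was lower (-0.90, adjusted p = 0.00012). At 36 hpf tspo, a mitochondrial membrane protein, was higher in MO (1.01, adjusted p = 0.040), and neither hsd3b2 (1.63, adjusted p = 0.437) nor scarb1 (0.31, adjusted p = 0.847) passed. In MP replicate 1 at 36 hpf hsd3b2 stood at -2.61 and scarb1 at 0.04, against -6.56 and -2.78 in replicate 2 and -6.23 and -2.46 in replicate 3. cyp11a1 was also highest of the MP arrays in that replicate. Over the 12 arrays, which share groups and ages, the level of cyp11a1 correlated at 0.90 with hsd3b2 and at 0.79 with scarb1, as a description. Both were named for their large rise in MO at 24 hpf, which cyp11a1 shares. High values follow in part from that choice and show no particular link. The genes most like cyp11a1 reached 0.973 to 0.982.

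Among genes of steroid conversion at 24 hpf, hsd17b3 was higher (0.49, adjusted p = 0.034) and srd5a1 lower (-0.51, adjusted p = 0.033) of 6 tested. Of all genes, 48.3% differed at that age. At 36 hpf none of 6 passed with limma or the methods' t-test, and 0 had an unadjusted p under 0.05. Of 10 steroid receptor, chaperone and interrenal regulator genes at 24 hpf, nr0b1, a repressor of steroidogenic factor 1, was higher (0.80, adjusted p = 0.030), as was fkbp5, a chaperone partner of GR and a known GR target (0.61, adjusted p = 0.0097). fkbp4, another chaperone partner of GR, was lower (-0.71, adjusted p = 0.00039), as was ptges3a (-0.42, adjusted p = 0.0071). The 4 of 10 that passed stand beside the same 48.3% of all genes. At 36 hpf none of 8 passed with limma or the methods' t-test, and 1 had an unadjusted p under 0.05. Without MO replicate 2, ptges3b passed there and was higher, beside 11.4% of all genes called in that setting.

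**Figure D3:**
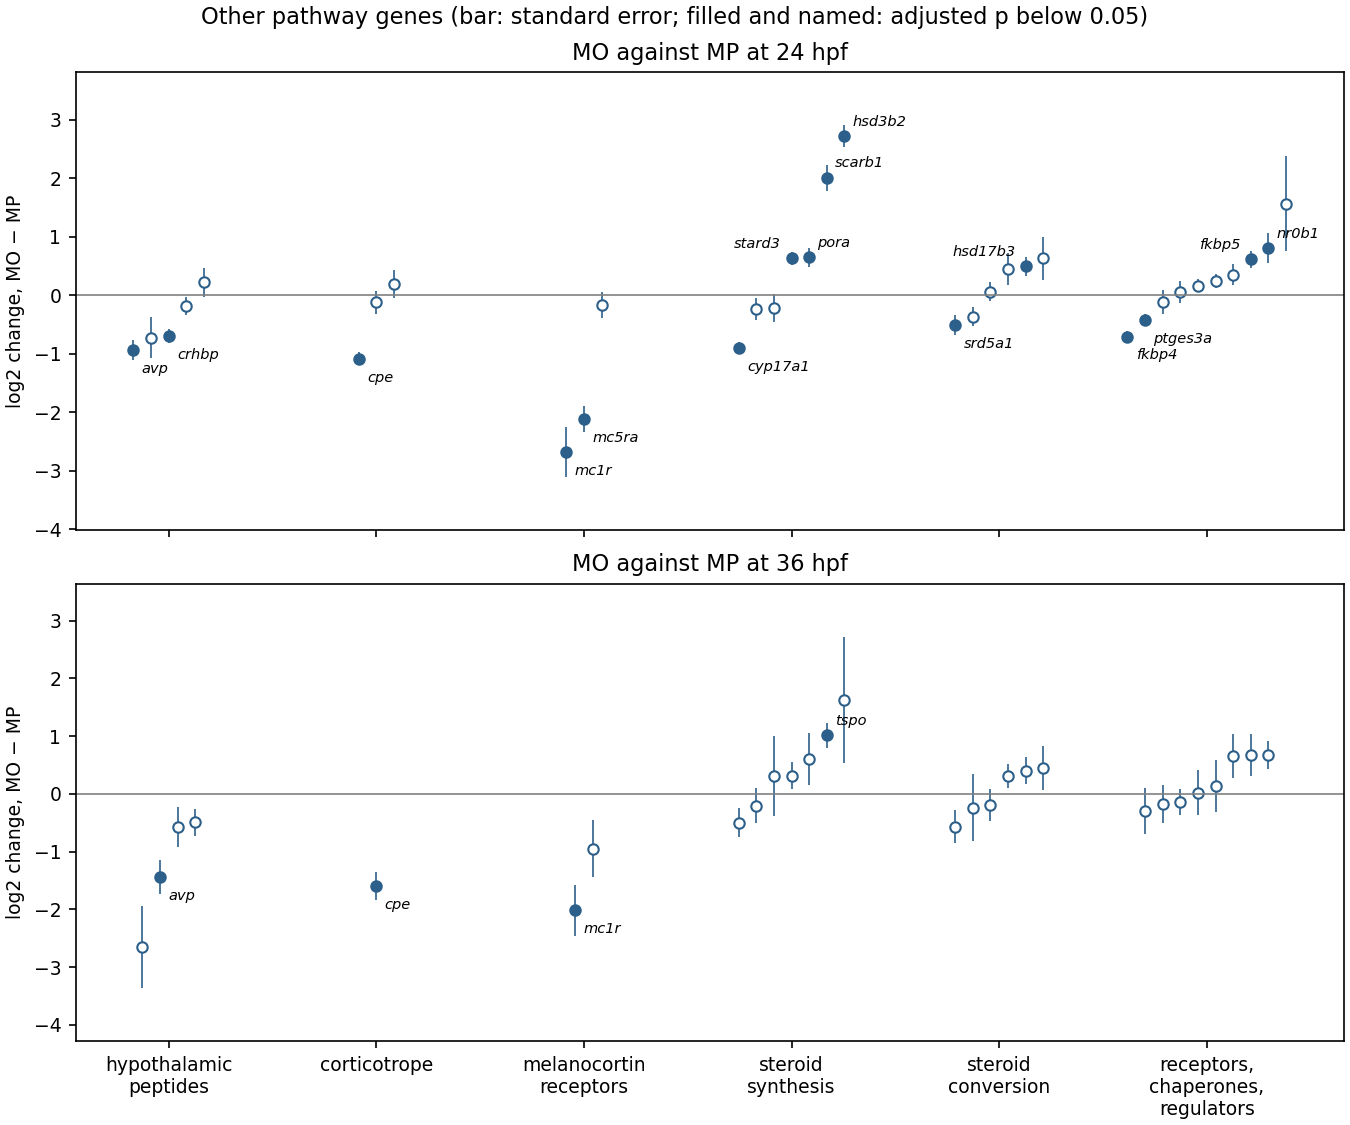
Log2 change between MO and MP at 24 and 36 hpf for the other genes of the axis that were tested, by list, with filled symbols for genes past the threshold. At 24 hpf 7 genes are higher and 9 lower; at 36 hpf 1 is higher and 3 are lower.

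Markers of large tissues also differed between the labelled groups, and for tnnt3b and cryba4 the study words the opposite direction. At 24 hpf, 2 of 3 muscle, 3 of 3 red blood cell, 3 of 3 neuron and 2 of 3 lens genes were lower in MO, and none was higher, beside 24.0% of all genes lower. A sum weights each gene by the brightness of its probe, and 1 probe can carry most of it. In the lens sum cryba4 held 77.5% to 97.6% on an array, and in the yolk layer sum above afp4 held 59.8% to 82.9%. The summed level of the neuron genes was 4.07 to 5.01 in MO and 10.9 to 12.3 in MP, and that of the lens genes 1.02 to 1.27 and 4.53 to 7.58. The muscle genes summed to 57.6 to 73.2 in MO and 121.4 to 152.1 in MP, and the red blood cell genes to 128 to 150.6 and 247.7 to 269.5. At 36 hpf 1 muscle, 2 neuron and 3 lens genes were lower, beside 4.45% of all genes. Without MO replicate 2 the muscle gene mylpfa was lower too, in a setting that called 11.4% of all genes in either direction. None of the 3 red blood cell genes passed at 36 hpf with limma or the methods' t-test, although 2 had an unadjusted p under 0.05. The sign of all 3 was opposite to that at 24 hpf. The exception was hbae3, negative at both ages under positive control (-0.91) and spike-in scaling (-0.86) and without MP replicate 1 at 36 hpf (-0.03). The measured log2 changes were 1.36 for hbbe3 (adjusted p = 0.121), 0.27 for hbae3 (adjusted p = 0.751) and 1.36 for alas2 (adjusted p = 0.097), whose groups did not overlap. In the test between ages alas2, a heme synthesis enzyme of red blood cells, differed by 2.24 (adjusted p = 0.033), a call lost when most single arrays were left out. In MP with age, 2 muscle, 1 neuron and 3 lens genes rose and 3 red blood cell genes fell, beside 14.3% of all genes rising and 16.1% falling. pomca, star, hsd11b2 and nr5a1b differed in the same direction as these tissues at 24 hpf. The part of tissue makeup or embryo age in the differences was not tested.

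Across the 12 arrays, as a description, star correlated at 0.89 with pomca and at 0.91 with hsd11b2, and hsd11b2 at 0.91 with nr5a1b. cyp11a1 ran opposite to them, at -0.93 with pomca and -0.89 with star. The arrays share groups, ages and scaling. nr5a1b was well above background on only 6 of the 12 arrays, so its correlations rest in part on values near background. Among 9134 or 9135 genes well above background on all arrays, the patterns most like that of pomca were ankrd46b (0.984), hspa4l (0.984) and sod2 (0.982). For star they were nme2b.2 (0.980), cdnf (0.980) and vamp1a (0.979). For hsd11b2 they were rgs7bpa (0.983), islr2 (0.977) and skor1b (0.976), and for nr5a1b tnn (0.987), rab6ba (0.982) and epyc (0.982). For cyp11a1 they were eme1 (0.982), oclna (0.976) and cyp26a1 (0.973). The likeness was lower for nr3c1, with comtb (0.933), cabp1b (0.922) and mtmr1a (0.908), and for nr5a1a, with stx12 (0.896), myo7aa (0.887) and map3k20b (0.868).

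**Figure D4:**
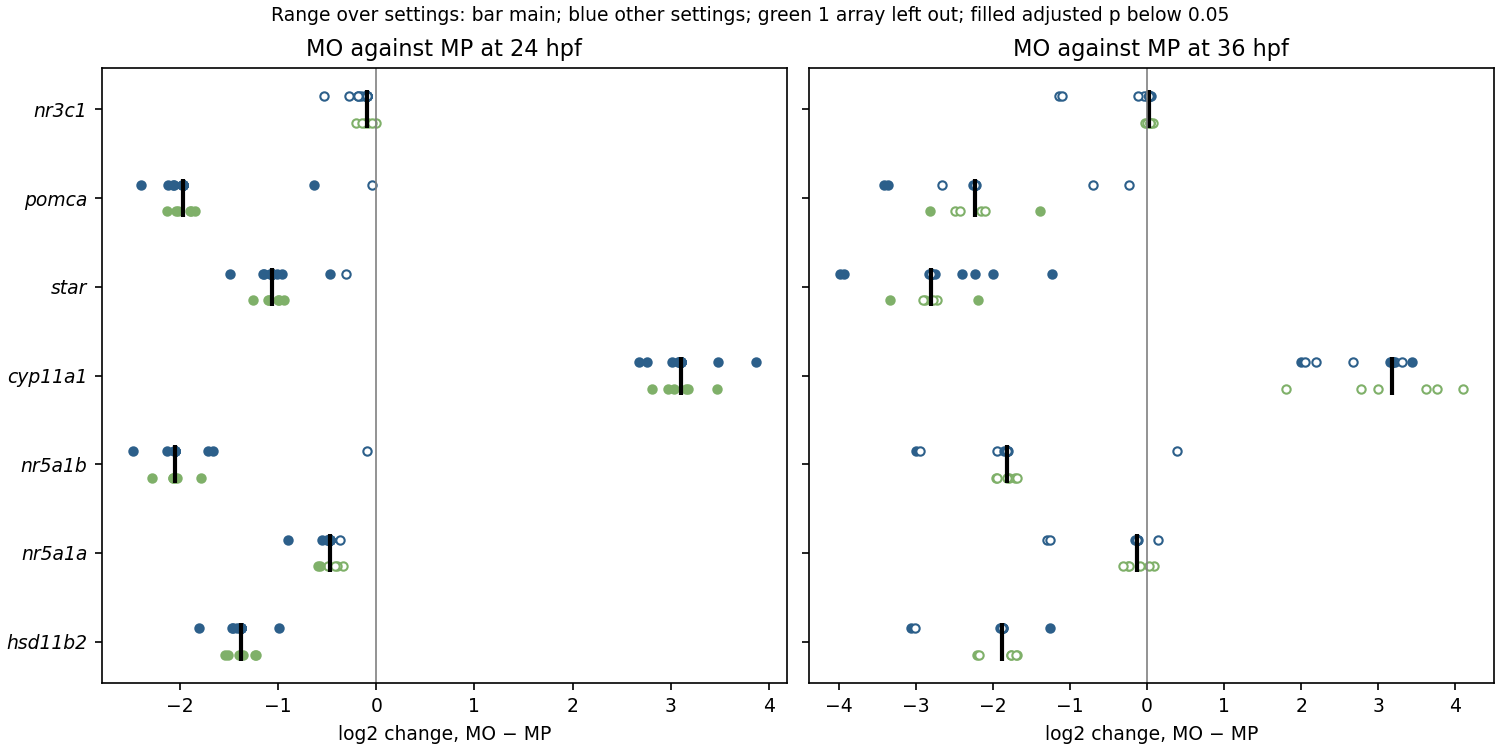
Log2 change of each tested gene between MO and MP under each way of processing the arrays, at 24 and 36 hpf. The sign held at 24 hpf, while at 36 hpf nr3c1, nr5a1a and nr5a1b crossed 0 under some settings. nr5a1b did so under normexp only, whose offset of 50 exceeds most of its intensities.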

How the data were processed

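Scanner intensity files were deposited for 12 one-colour arrays, and per the file headers the authors used Feature Extraction (Agilent, version 10.5.1.1). The processed intensity was floored at 0.05, divided by the median of the array over 19114 probes above 50 on all arrays, and taken to log2. As alternatives, a floor set after scaling clips levels below log2 -4.32, and normexp adds an offset of 50. The floor hides differences between levels below it, and the offset compresses log2 changes of dim probes. With normexp, pomca at 24 hpf and star at both ages still passed. The levels of hsd11b2 at 36 hpf and nr5a1a at 24 hpf lay above the floor, and their calls were lost with it all the same. Positive control scaling used the control spots of each array, whose median intensity was only 1.95 to 5.16. The deposited table of normalized ratio values, made by the authors, served as an alternative. In it the columns of MP replicates 2 and 3 at 24 hpf are exchanged relative to the scanner files, which leaves the groups the same. Control spots and outlier spots were left out. Of 43603 probes, 15774 carried a current gene name, for 10917 genes. The filter kept a gene where every array of some group of 3 had its probe well above background. Groups were compared with limma 3.58.1 in R 4.3.3 (lmFit, eBayes with a trend, two-sided, adjusted p threshold 0.05), and the procedure was tested on simulated data. Levels give no count of molecules, and the number of arrays limits the precision. The genes and lists were chosen with earlier results of these data known. Named are all 8 genes, genes of the axis lists past the threshold between MO and MP, and the 3 genes most like each; marker genes were named for their values beside a result, and hsd3b2, scarb1 and crhb at 36 hpf after their values were seen. Spike-in scaling, the exchanged replicate block, list counts without MO replicate 2, counts without nr5a1b and the settings of the red blood cell genes were alternatives chosen after seeing the data.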

Additional observations from a re-analysis of the deposited data

Results flagged for a closer look

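The red blood cell gene alas2, a heme synthesis enzyme, differed between MO and MP to a different extent at the 2 ages. Its log2 change was -0.88 at 24 hpf (limma, adjusted p = 0.00052), with MO from -0.84 to -0.51 and MP from 0.05 to 0.27. At 36 hpf it was 1.36 (adjusted p = 0.097), with MO from -0.29 to -0.19 and MP from -2.20 to -0.62. The test of the difference between the ages gave 2.24 (adjusted p = 0.033). Of the other red blood cell genes, hbbe3 differed by 2.11 (adjusted p = 0.063) and hbae3 by 1.36 (adjusted p = 0.173), and neither passed. In the same limma test hbbe3 passed without MO replicate 2 (adjusted p = 0.026) or MP replicate 3 (0.0010) at 36 hpf. It also passed with quantile normalization (0.044). hbae3 passed without the same arrays (0.045 and 0.0090). The alas2 call was lost without any 1 array other than MO replicate 2 or MP replicate 3 at 36 hpf (adjusted p from 0.055 to 0.098), with a floor set after scaling (0.054), with slide as a block (0.115), and with positive control (1.15, adjusted p = 0.199) or spike-in scaling (1.54, adjusted p = 0.878). The cause was not tested.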

How the results depend on the processing

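The number of the 7 genes called at 24 hpf stayed at 5 or 6 when any 1 array was left out, and fell to 2 (of 6 tested) with a floor set after scaling. At 36 hpf, where 3 were called, the count was 5 with positive control scaling and with a single fit of all 12 arrays. It was 1 with slide as a block, 0 with the methods' t-test, and 0 to 4 when 1 array was left out. It was also 1 with a floor set after scaling, where nr5a1b had no value. With only genes well above background on all arrays compared it was 1 too. There pomca and the called genes star and nr5a1b were not tested. For MP with age, where 5 were called, it was 2 with positive control scaling, the floor set after scaling, spike-in scaling or the methods' t-test, 3 with normexp background correction or the single fit, and 4 to 5 with 1 array left out. In the test between ages, 1 gene was called with positive control scaling or the floor set after scaling, and 0 to 1 with 1 array left out. Causes were not tested.

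The sign of the nr3c1 change at 36 hpf turned under positive control scaling (-1.15), spike-in scaling (-1.10), the authors' table (-0.00052), the mean of all probes (-0.045) and the dimmer probe (-0.12), and ran from -0.033 to 0.071 with 1 array left out; for MP with age it was -0.27 under positive control scaling. With normexp, nr5a1b was 0.39 and nr5a1a 0.14 at 36 hpf, and nr5a1a ran from -0.31 to 0.095 with 1 array left out. The normexp offset of 50 exceeds most nr5a1b intensities, so the nr5a1b sign there is not informative. Positive control scaling moved the median of all genes to -0.08 at 24 hpf, -1.15 at 36 hpf and -0.59 for MP with age, and spike-in scaling to -0.42, -1.10 and -0.18. Each scaling is 1 constant per array, so changes relative to that median stay the same by construction.

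Deviations of same-numbered MO and MP arrays correlated at -0.167 to -0.017 at 24 hpf. At 36 hpf the correlations were 0.152, 0.084 and -0.256 for replicates 1, 2 and 3. With deviations from means of 3 arrays, these values cannot exclude that same-numbered pools belong together. With a replicate block, 1 gene was called at 36 hpf, and nr5a1a was lost at 24 hpf (adjusted p = 0.056). The exchange of MP replicates 2 and 3 concerns 24 hpf only. At 36 hpf it repeats the replicate block by construction and adds nothing, though it is counted among the alternatives there.

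Over all genes, 5001 were called at 24 hpf (2485 lower, 2516 higher), 2409 with spike-in scaling (1909 lower, 500 higher) and 2215 with the single fit. At 36 hpf 630 were called (440 lower, 190 higher), and 1314 (1301 lower, 13 higher) were called with positive control scaling, 146 lower and 0 higher with spike-in scaling, 148 with slide as a block, 226 with a replicate block, 253 with the floor set after scaling, 1878 with the single fit, 1215 of all probes and 2 with the methods' t-test, and 19 to 1121 with 1 array left out. For MP with age the count of 3140 (1662 lower, 1478 higher) fell to 169 (59 lower, 110 higher) with spike-in scaling, 595 (452 lower, 143 higher) with positive control scaling and 1838 with the methods' t-test, and was 1780 to 3118 with 1 array left out. Between ages 162 (95 lower, 67 higher) became 384 (383 lower, 1 higher), 277 and 31 with positive control scaling, the floor and slide as a block, 99 (all lower) with spike-in scaling, 55 lower and 50 higher with normexp, 266 over all probes, and 60 to 1630 with 1 array left out. nr5a1b had no value with the floor set after scaling.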
